A study of Sus scrofa with 8 samples.

Results

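The genes of cholesterol and fatty acid synthesis were examined in porcine pancreatic ductal organoids (PPDO), which are hollow epithelial cultures grown from ducts of the pig pancreas. Of 30 genes chosen by name, 29 were found among the 30282 genes of the count table. They comprise 16 enzymes of sterol synthesis, 5 genes of the regulation of sterol synthesis and of sterol transport, and 8 enzymes of fatty acid synthesis and desaturation. The remaining gene, ACACB, was not analysed here because no row carries its symbol.

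Bulk RNA-Seq covered 4 PPDO lines, each cultured for 7 days in 2 media (8 libraries, n = 4 lines per medium). The pigs were German landrace animals, either wild-type or carrying an INS-eGFP reporter, and the labels do not say which line came from which. The line Em is embryonic, EPN1 and EPN2 are early postnatal and LPN is late postnatal, so that the embryonic and the late postnatal stage have 1 line each. The complete medium, labelled control, held WNT3a, R-spondin1, noggin, FGF10, EGF, gastrin I and prostaglandin E2, and the differentiation medium, labelled treated, lacked all of these. To maintain PPDO, the authors replaced WNT3a, R-spondin1 and noggin by a conditioned medium supplement (L-WRN). Whether the complete medium of these libraries held that supplement is not stated. Both media contained the N2 supplement, B27 without vitamin A, the TGF-beta receptor inhibitor A83-01, the ROCK inhibitor Y-27632, nicotinamide and N-acetyl-L-cysteine. Library totals ranged from 40553593 to 47910657 estimated counts. Among the 29 genes the lowest value was 77 counts, for FADS1 in LPN in differentiation medium, and the highest was 40539 counts, for SCD.

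The labelled cell type was checked against its markers. In every library the duct markers were expressed, with a sum of 3823 to 14140 CPM (read counts relative to the library total, scaled by the TMM method) over the 8 markers found, of which KRT8, an epithelial keratin, was the most abundant. The markers of fat cells, which make large amounts of fatty acids, summed to 0.23 to 1.11 CPM over 5 genes, of which CIDEC was the most abundant and LEP was at 0 in every library. Those of hepatocytes, the main sterol-producing cells of the body, summed to 1.06 to 448 CPM over 5 genes, with SERPINA1 as the most abundant. ALB, the albumin gene, had 9 to 22 counts in each library and TTR at most 20. Acinar markers summed to 124 to 320 CPM over 7 genes, mostly CTRC, while CPB1, PNLIP and CLPS were at 0. Endothelial markers summed to 15.7 to 44.0 CPM, immune markers to 3.32 to 50.5 CPM and stromal markers to 0.67 to 8.95 CPM. Of the markers of all 8 lists, 21 were tested between the media by edgeR, which called none without the block (6.97% of all genes were called), with 3 at an unadjusted p-value under 0.05 (27.3% of all genes), and 3 with the block (19.9%). DESeq2 without the block called 6 of 30 (17.9%).

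Cholesterol is built from acetyl-CoA through mevalonate, farnesyl diphosphate, squalene and lanosterol. Fatty acids are built from the same precursor through malonyl-CoA and are then elongated and desaturated. The transcription factors SREBP-2 and SREBP-1, encoded by SREBF2 and SREBF1, drive the genes of these routes. They are held in the endoplasmic reticulum by the INSIG proteins when sterols are plentiful, and SCAP escorts them to the Golgi for activation when sterols are scarce. Genes under SREBP-2 control are known to move together in many tissues.

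The comparison asks how these genes differed between the complete and the differentiation medium. In these data the 29 genes did not move in 1 direction. The fitted log2 fold change (differentiation against complete medium) was positive for 10 and negative for 19, with a median of -0.15, whereas the median over all 14475 genes tested was 0.01. None of the 29 passed an adjusted p-value of 0.05 in edgeR's quasi-likelihood test, while 6.97% of all genes tested did. At an unadjusted p-value under 0.05 there were 4 of 29, namely PMVK, LSS and ACSS2 higher and ELOVL6 lower in differentiation medium, beside 27.3% of all genes.

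Each line contributed to both media, and a fit with the line as a block called 4 of the 29, compared with 19.9% of all genes. These were PMVK, LSS and SCAP, which rose (9.48% of all genes rose in this fit), and ELOVL6, which fell (10.4% fell). By DESeq2 without the block, PMVK and LSS passed as higher, beside 8.86% of all genes. By DESeq2 with the block, 6 of the 29 were called higher, beside 18.2% of all genes, and 4 lower, beside 16.7%. The higher genes were PMVK, MVD, LSS, DHCR7, SREBF2 and SCAP, and the lower ones EBP, STARD4, SCD and ELOVL6. None of the 29 changed the direction of its fold change in any of the 9 alternative fits to all 8 libraries.

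**Figure D1:**
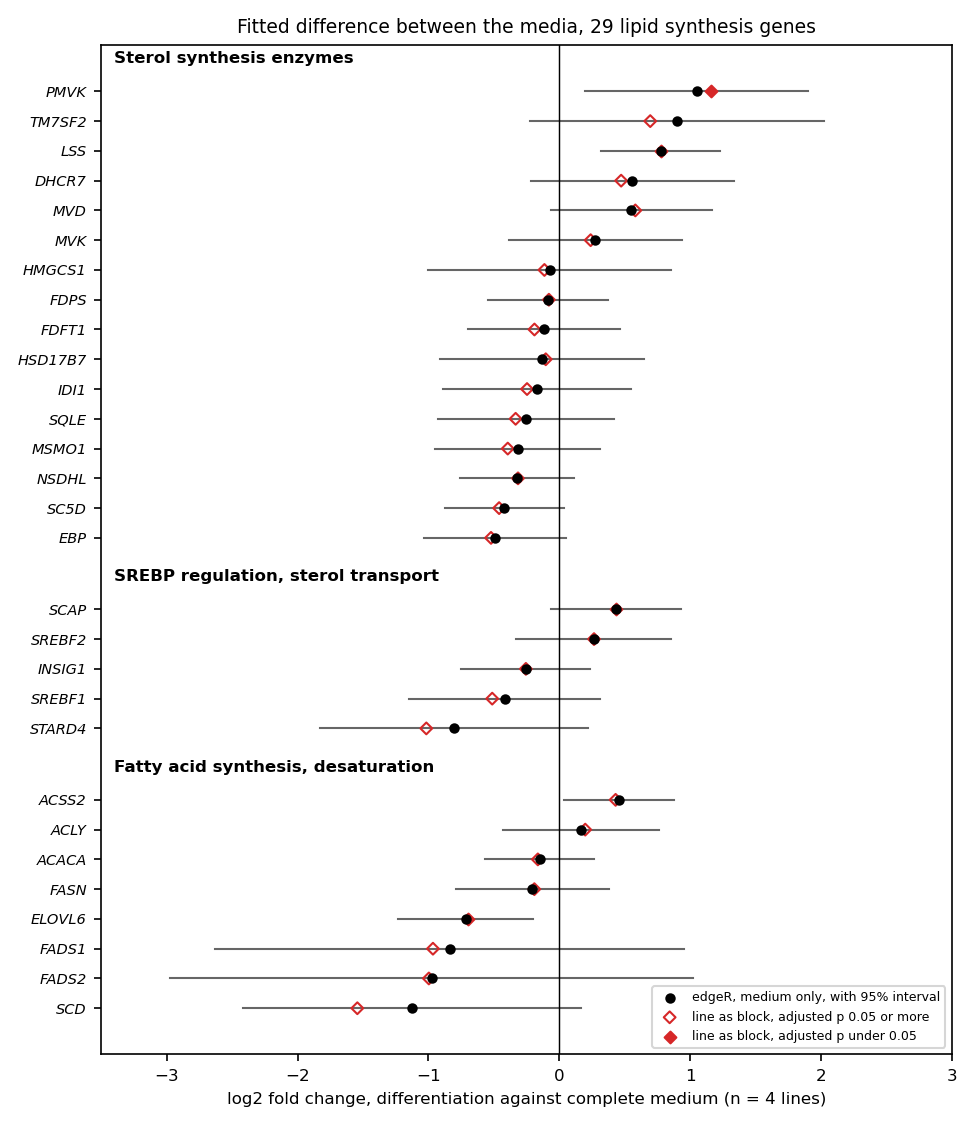
The horizontal axis gives the fitted log2 fold change between differentiation and complete medium for each of 29 genes, with black points and bars for the fit with medium only and its 95% interval, and red diamonds for the fit with the line as a block. Filled diamonds mark PMVK, LSS, SCAP and ELOVL6, the 4 genes with an adjusted p-value under 0.05 in the block fit.

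The sterol synthesis enzymes were divided. Positive fold changes were found for 6 enzymes, namely MVK, PMVK, MVD, LSS, TM7SF2 and DHCR7, and negative ones for the other 10, with a median of -0.10 over the 16 genes. That median was 0.039 without LPN in differentiation medium and -0.26 without both libraries of Em, so that its sign was not stable. In both edgeR fits none of the 16 was called lower.

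LSS encodes lanosterol synthase, which closes the ring system of the sterols. Its level in complete medium was 120.5 CPM in Em, 137 CPM in LPN, 83.0 CPM in EPN1 and 116 CPM in EPN2. In differentiation medium it was 188, 209, 149 and 237 CPM in the same order. Every library in differentiation medium lay above every library in complete medium. The mean was 114 ± 22.6 CPM (SD, n = 4) in complete and 196 ± 37.3 CPM in differentiation medium. The log2 fold change was 0.78 (95% interval 0.32 to 1.23), with an edgeR adjusted p = 0.0551 without and 0.0156 with the line as a block. In the RefSeq table of the Sscrofa11.1 assembly LSS lies on an unplaced sequence.

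PMVK, phosphomevalonate kinase, acts in the mevalonate route. It measured 4.35, 5.68, 2.36 and 8.14 CPM in Em, LPN, EPN1 and EPN2 in complete medium. The corresponding levels in differentiation medium were 10.5, 9.33, 9.17 and 13.5 CPM. The media did not overlap, and EPN1 had the largest difference with a log2 value of 1.94. The fitted log2 fold change was 1.05 ± 0.37 (SE, n = 4), and the adjusted p from edgeR was 0.121 without and 0.0385 with the block. PMVK lies at chr4:94861500-94913743 in Sscrofa11.1.

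SC5D, sterol C5-desaturase, was the only other of the 16 whose media did not overlap, in the lower direction. It measured 82.4, 70.7, 74.8 and 73.2 CPM in complete medium in Em, LPN, EPN1 and EPN2. In differentiation medium the levels were 69.6, 41.0, 44.6 and 69.9 CPM. The gap between the media was small, since EPN2 in differentiation medium lay just under LPN in complete medium. The log2 fold change was -0.42 ± 0.20 (SE, n = 4), with an edgeR adjusted p of 0.214 without and 0.0906 with the block. The deposited counts of SC5D, FDPS and TM7SF2 departed from whole numbers by up to 0.417, 0.486 and 0.466, whereas those of the other genes lay within 0.017, and the cause was not tested.

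Over the 29 genes, 2 (LSS and PMVK) were higher without overlap, beside 8.82% of all genes, and 1 (SC5D) was lower without overlap, beside 9.96%. A difference of the same sign in 4 of 4 lines was more common and close to the share among all genes. There were 6 such genes in the higher direction (PMVK, MVD, LSS, DHCR7, SREBF2 and SCAP), beside 23.9% of all genes. In the lower direction there were 5 (EBP, SC5D, INSIG1, ELOVL6 and FADS1), beside 24.2%.

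**Figure D2:**
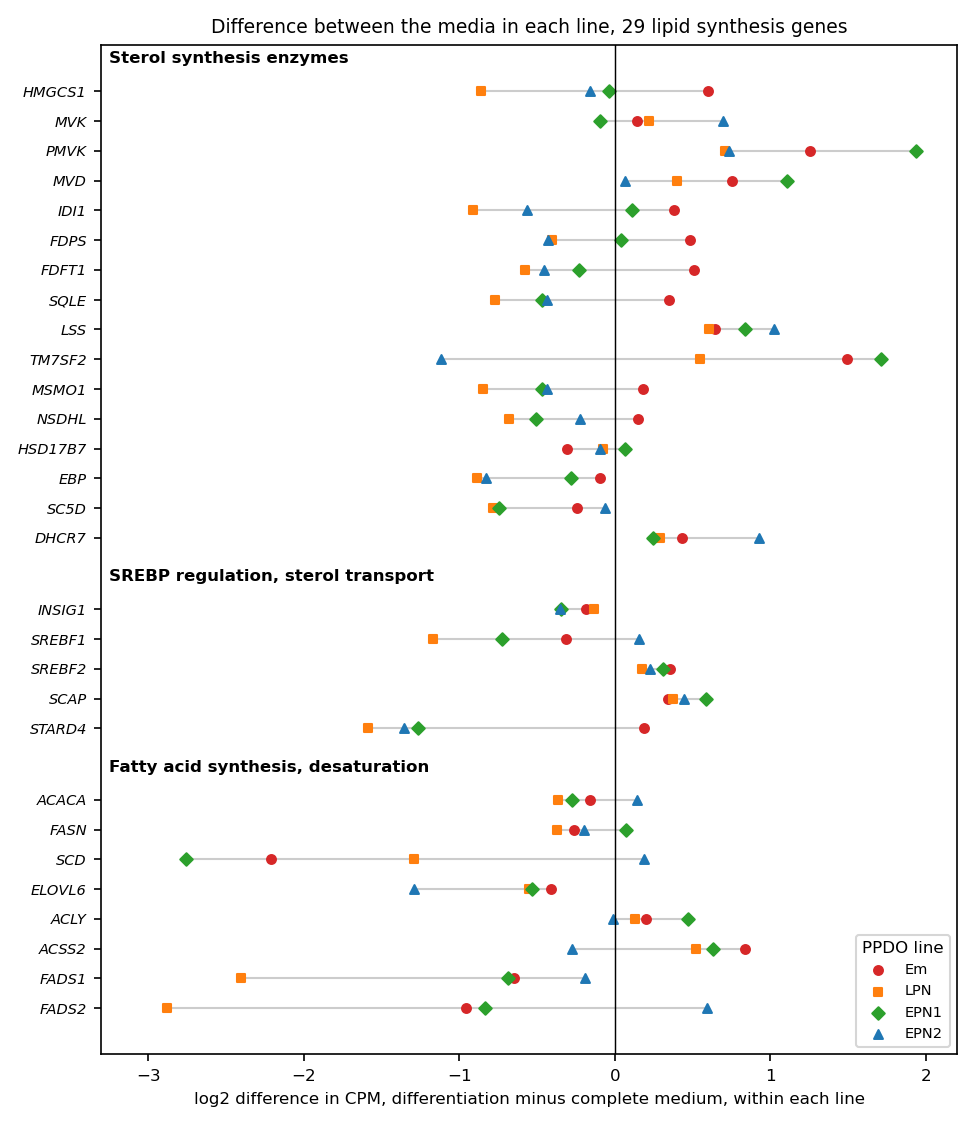
The horizontal axis gives the log2 difference in CPM between differentiation and complete medium within each of 4 PPDO lines, 1 symbol per line, for 29 genes on the vertical axis in 3 groups. Red circles (Em) lie right of 0 for 13 of 16 sterol enzymes, whereas blue triangles (EPN2) lie left of 0 for 11 of them.

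The lines differed from each other in the sterol enzymes. In Em, 13 of 16 were higher in differentiation medium, with a median log2 difference of 0.41. In LPN, 10 of 16 were lower and the median was -0.49. In EPN1 the list was split into 8 and 8 with a median of 0.0019, and in EPN2 11 were lower with a median of -0.19. Over all genes the medians of the 4 lines lay between -0.011 and 0.0060.

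HMGCS1, the cytosolic HMG-CoA synthase, had means of 289 ± 122 and 275 ± 129 CPM in the complete and the differentiation medium. In Em its level was 235 CPM in complete and 356 in differentiation medium, but 281 and 155 CPM in LPN. In EPN1 (180.0 and 176 CPM) and EPN2 (461 and 413 CPM) the media were close. Hence nearly equal means covered opposite differences in Em and LPN. SQLE, squalene epoxidase, a rate-limiting step of the later pathway, had means of 133 ± 22.9 and 112 ± 47.8 CPM. In Em it measured 138 CPM in complete and 176 in differentiation medium. The other lines had lower values in differentiation medium, from 123 to 71.9 CPM in LPN, from 109 to 79.2 CPM in EPN1 and from 163 to 120.1 CPM in EPN2.

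The same pattern of signs, higher in Em and lower in LPN, EPN1 and EPN2, was found in HMGCS1, FDFT1, SQLE, MSMO1 and NSDHL of the sterol enzymes and in STARD4. FDFT1 encodes squalene synthase, MSMO1 the C4-methylsterol oxidase and NSDHL the dehydrogenase that works with it. These are 6 of 29 genes, beside 5.85% of all genes with this pattern and 11.2% with opposite signs in Em and the postnatal lines in either order. In EPN1 the log2 difference of HMGCS1 was -0.034, so that its sign there carries little information. The embryonic stage is represented by 1 line, and the difference between Em and the postnatal lines was not tested. SQLE and MSMO1 had the highest correlation of any pair among the 29, with r = 0.97 over 8 libraries. IDI1, FDFT1 and EBP each correlated with SQLE and with MSMO1 at r = 0.87 to 0.94. The median over all pairs of sterol enzymes was 0.33 and the lowest value -0.67. These values describe libraries that share lines and media.

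Libraries also stood apart in their cell type markers. In differentiation medium Em had the highest sum of duct markers, with 14140 CPM, and EPN2 the lowest, with 3823 CPM. In Em 7 of the 8 duct markers were higher in differentiation medium. The other, CFTR, was lower, with 15590 counts in complete and 6218 in differentiation medium. The hepatocyte markers summed to 448 CPM in Em and to 437 CPM in EPN1 in that medium, and to 1.14 CPM in EPN2. Most of the sum in Em and EPN1 was SERPINA1, with 18834 and 13187 counts, whereas ALB had 17 and 16 counts there. Endocrine markers reached 21.3 CPM in Em in differentiation medium and did not exceed 2.41 CPM in any other library, with GCG, the glucagon gene, as the most abundant of 6. The part of these differences in the sterol values was not tested. In bulk RNA, fewer cells of a type and less RNA per cell cannot be told apart.

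The remaining sterol enzymes did not pass the test in either edgeR fit. MVD, mevalonate diphosphate decarboxylase, had means of 38.4 ± 12.4 and 56.3 ± 13.6 CPM in complete and differentiation medium and was higher in 4 of 4 lines. DHCR7, which performs the last reduction to cholesterol, had means of 46.4 ± 11.5 and 68.4 ± 34.5 CPM, also with 4 of 4 lines higher. Its largest difference was in EPN2, from 62.7 to 119 CPM. The edgeR adjusted p was 0.223 for MVD and 0.317 for DHCR7. TM7SF2, a sterol C14-reductase, measured 27.1, 20.1, 16.5 and 28.8 CPM in complete medium and 76.3, 29.3, 54.0 and 13.2 CPM in differentiation medium in Em, LPN, EPN1 and EPN2. It was thus higher in 3 lines and lower in EPN2, and its interval for the log2 fold change ran from -0.22 to 2.03. EBP, the sterol isomerase, was lower in 4 of 4 lines, with means of 42.2 ± 7.67 and 30.03 ± 9.31 CPM. IDI1, FDPS, HSD17B7 and MVK had fold changes between -0.17 and 0.28 on the log2 scale.

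The genes of SREBP regulation and sterol transport were likewise divided. SCAP and SREBF2 had positive fold changes and INSIG1, SREBF1 and STARD4 negative ones. The median over the 5 genes was -0.26, and it was -0.098 without EPN2 in complete and -0.14 without EPN1 in differentiation medium. Without both libraries of EPN2 it was -0.21, and without both of EPN1 -0.23. Without the block none was called by edgeR or DESeq2, and none had an unadjusted p-value under 0.05 in edgeR.

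SCAP, the escort of SREBP, measured 82.8, 108, 77.4 and 127 CPM in Em, LPN, EPN1 and EPN2 in complete medium. In differentiation medium it measured 105, 139.6, 116 and 173 CPM. The ranges of the media overlapped, because the lines differed, but each line was higher in differentiation medium by a log2 difference of 0.34 to 0.59. The fitted log2 fold change was 0.43 ± 0.22 (SE, n = 4), and the edgeR adjusted p was 0.235 without and 0.0315 with the line as a block.

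SREBF2 was also higher in differentiation medium within every line, by a log2 difference of 0.18 to 0.35, but was not called by edgeR with the block (adjusted p = 0.113). Its means were 444 ± 125 and 532 ± 143 CPM. The line accounted for 85.3% of its variance and the medium for 13.8%. Over the 8 libraries the correlations between the regulators and the sterol enzymes had a median r of 0.24 and ranged from -0.74 to 0.93, the highest being that of SREBF2 and DHCR7.

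STARD4, a carrier of cholesterol between membranes, measured 51.0, 37.2, 68.1 and 52.2 CPM in Em, LPN, EPN1 and EPN2 in complete medium. In differentiation medium the levels were 58.2, 12.4, 28.4 and 20.4 CPM. The 3 postnatal lines were below their levels in complete medium, with log2 differences of -1.59, -1.26 and -1.35, while Em was slightly higher. Over the lines STARD4 had a log2 fold change of -0.81 (95% interval -1.83 to 0.22), with an edgeR adjusted p of 0.278. On leaving out 1 library the fold change ranged from -1.35 to -0.55, and STARD4 was called in none of these fits.

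SREBF1 measured 122, 169, 173 and 189 CPM in complete medium in Em, LPN, EPN1 and EPN2. In differentiation medium it measured 98.2, 74.9, 105 and 210.4 CPM. It was lower in 3 lines and slightly higher in EPN2. SREBF1 had a log2 fold change of -0.42 ± 0.32 (SE, n = 4; edgeR adjusted p = 0.428), which ranged from -0.81 without EPN2 to -0.24 without LPN in differentiation medium. INSIG1, which retains SCAP and SREBP, was lower in 4 of 4 lines by small amounts, with means of 58.2 ± 13.5 and 48.8 ± 10.7 CPM and an edgeR adjusted p of 0.472.

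The fatty acid branch had a median of -0.46 over 8 genes. It moved to -0.20 without Em in complete medium, a fit that keeps Em in differentiation medium only. Without both libraries of Em it was -0.49, or -0.45 with the block. On leaving out a line with the block it ranged from -0.51 to -0.27, the latter without LPN. The difference from the sterol branch was not tested. The list had 6 negative and 2 positive fold changes, and no gene was called without the block. The desaturases and the elongase had the most negative values, whereas the enzymes that make cytosolic acetyl-CoA, ACLY and ACSS2, had the positive ones.

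SCD, stearoyl-CoA desaturase, introduces the double bond that makes oleic acid. Its level in complete medium was 740.8 CPM in Em, 690.0 CPM in LPN, 975 CPM in EPN1 and 762 CPM in EPN2. In differentiation medium the levels were 160.0, 282, 144 and 867 CPM. The 3 lines Em, LPN and EPN1 were thus lower, by log2 differences of -2.21, -1.29 and -2.75, and EPN2 was not, with a difference of 0.19. Over 4 lines SCD had a log2 fold change of -1.12 (95% interval -2.42 to 0.17), with an edgeR adjusted p of 0.236. This value rested on 1 library, because without EPN2 in differentiation medium the log2 fold change was -2.02 and the adjusted p 0.0188. SCD lies at chr14:111461560-111478033.

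ELOVL6 elongates the products of fatty acid synthase. It measured 85.4, 59.2, 78.1 and 114 CPM in Em, LPN, EPN1 and EPN2 in complete medium. The levels in differentiation medium were 64.2, 40.5, 53.9 and 46.4 CPM. It was lower in 4 of 4 lines, the most so in EPN2, although Em in differentiation medium lay above LPN in complete medium. The log2 fold change was -0.71 ± 0.22 (SE, n = 4), with an edgeR adjusted p of 0.0921 without and 0.0448 with the line as a block. ELOVL6 lies at chr8:112038670-112190079.

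ACSS2, a cytosolic acetyl-CoA synthetase, measured 54.9, 61.7, 59.5 and 67.5 CPM in complete medium in Em, LPN, EPN1 and EPN2. In differentiation medium it measured 98.1, 88.7, 92.0 and 55.7 CPM. The 3 lines in which SCD was lower were those in which ACSS2 was higher, and EPN2 had the opposite sign for both genes. ACSS2 had a log2 fold change of 0.46 ± 0.18 (SE, n = 4; edgeR adjusted p = 0.154), and without EPN2 in differentiation medium it was 0.61 with an adjusted p of 0.0296. Across the 8 libraries SCD and ACSS2 had r = -0.95, the lowest of any pair among the 29 genes.

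**Figure D3:**
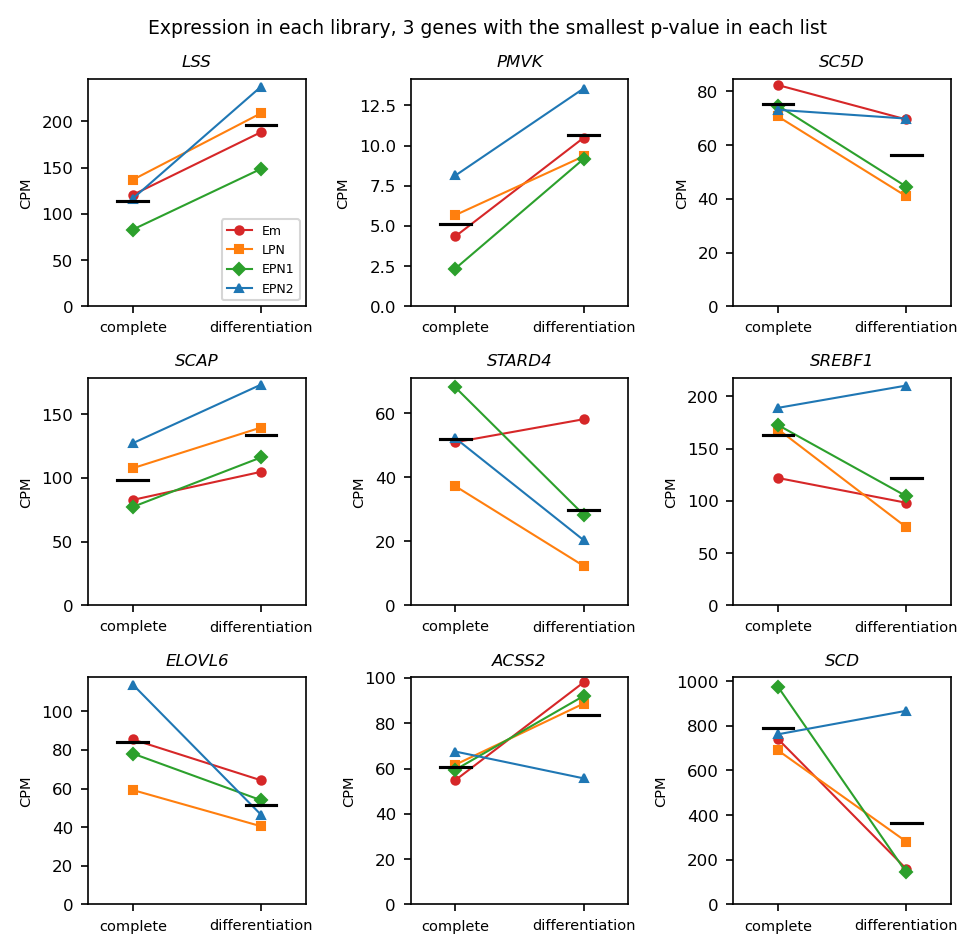
Each panel gives the level in CPM (vertical axis, from 0) of 1 gene in complete and differentiation medium, with 1 line and symbol per PPDO line and a black bar for the mean of 4. The panels of LSS and PMVK show higher values in 4 of 4 lines and no overlap, and that of SCD shows 3 lines that end at 144 to 282 CPM and EPN2 at 867 CPM.

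In the fatty acid branch the line that stood apart was EPN2. ACACA, SCD, ACLY, ACSS2 and FADS2 had a sign in EPN2 opposite to that in the other 3 lines, which are 5 of 8 genes. With TM7SF2 and SREBF1 this held for 7 of 29 genes, beside 14.8% of all genes. The differences in EPN2 were small for ACACA (0.14) and ACLY (-0.0097), so that their signs carry little information. The difference between EPN2 and the other lines was not tested, and this grouping was chosen after the values had been seen. In EPN2, 7 of the 8 duct markers were lower and 1 was higher in differentiation medium, and their summed level was 3823 CPM there, compared with 6690 CPM in the complete medium. The part of these marker differences in the fatty acid values was not tested.

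The enzymes that commit carbon to fatty acids overlapped between the media. FASN, fatty acid synthase, had means of 663 ± 190 and 574 ± 142 CPM and a log2 fold change of -0.21 (95% interval -0.79 to 0.38). ACACA, acetyl-CoA carboxylase, had means of 110.3 ± 15.8 and 99.5 ± 22.4 CPM and a log2 fold change of -0.15 (95% interval -0.56 to 0.27). For ACLY, ATP citrate lyase, the means were 170.1 ± 54.7 and 191 ± 41.4 CPM. The intervals of FASN and ACACA leave room for a decrease to a log2 value of -0.79 and -0.56, and the data do not show that these genes were equal in the media.

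The desaturases FADS1 and FADS2, which make long polyunsaturated fatty acids, are neighbours on chromosome 2, with 68.8 kb between them in the RefSeq annotation of Sscrofa11.1 (FADS2 at chr2:9633941-9666666 and FADS1 at chr2:9735425-9747405). They varied together over the libraries, with r = 0.93, and more between lines than between media. FADS2 measured 92.3, 27.5, 32.0 and 8.03 CPM in complete medium in Em, LPN, EPN1 and EPN2, and 47.5, 3.70, 17.97 and 12.1 CPM in differentiation medium. Only in EPN2 was it higher in differentiation medium. LPN had the largest difference in both genes, with log2 values of -2.88 for FADS2 and -2.40 for FADS1. The line accounted for 66.3% of the variance of FADS2 and 73.7% of that of FADS1. The fold changes, -0.97 and -0.84, had intervals from below -2.6 to above 0.95 and did not pass the test. Without the block they shifted on leaving out 1 library of Em, the line with the highest levels of both genes. FADS2 had -0.13 and FADS1 -0.45 without Em in complete medium, and -1.82 and -1.36 without Em in differentiation medium. Such a fit keeps Em in 1 medium only, so that the level of the line enters the fold change. Within Em the log2 differences were -0.96 for FADS2 and -0.65 for FADS1.

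The lines accounted for much of the variance of many of these genes. The median share of variance over the 29 genes was 58.8% for the line and 17.4% for the medium. Over all genes tested the medians were 49.4% and 24.5%. HSD17B7, a sterol ketoreductase, had the highest share for the line, 96.3%, and LSS the highest for the medium, 69.6%. In LSS, PMVK, EBP, SC5D, ELOVL6, SCD and ACSS2 the share of the medium exceeded that of the line.

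Other lipid genes were taken from 5 lists, of which 72 genes were tested. In the fit without the block 1 was called higher and 3 were called lower, beside 2.87% and 4.1% of all genes. With the block 6 were higher and 10 lower, beside 9.48% and 10.4% of all genes. The 5 lists had a median log2 fold change of -0.07.

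Of 8 tested genes of sterol efflux and storage none was called without the block, and ABCA1 and ABCG1, the 2 with an unadjusted p-value under 0.05, had the smallest p-values. DESeq2 without the block, which uses another filter, called 4 of the 11 genes of the list for which it gave an adjusted p, ABCA1 among them, beside 17.9% of all genes. Both encode transporters that export cholesterol and are known targets of the LXR receptors. ABCA1 measured 5.48, 6.29, 5.58 and 58.9 CPM in complete medium in Em, LPN, EPN1 and EPN2, and 34.2, 87.4, 86.1 and 198 CPM in differentiation medium. Each line was higher, by log2 differences of 1.75 to 3.94, and the media overlapped only through the high level of EPN2. The log2 fold change was 2.41 with an edgeR adjusted p of 0.152, and 3.03 with an adjusted p of 0.0156 with the line as a block. Without EPN2 in complete medium it was 4.14 with an adjusted p of 0.0187. ABCG1 was higher in LPN, EPN1 and EPN2 (from 40.2 to 85.1, from 30.3 to 84.4 and from 38.9 to 90.5 CPM) and lower in Em (from 56.0 to 34.7 CPM), and was called in neither edgeR fit (adjusted p = 0.142 and 0.184). Without Em in differentiation medium ABCG1 had an adjusted p of 0.0425.

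Of 25 tested genes of elongation, acyl-CoA and glycerolipid synthesis and NADPH supply, edgeR called 2 without the block, beside 6.97% of all genes. With the block it called 7, beside 19.9%, and DESeq2 without the block called 8 of 26, beside 17.9%. An unadjusted p-value under 0.05 in edgeR was found for 11, beside 27.3%. The 2 genes called by edgeR without the block were ME1, which fell, and HSD17B12, which rose. ME1, malic enzyme, supplies NADPH for fatty acid synthesis. It measured 138, 105, 199 and 184 CPM in Em, LPN, EPN1 and EPN2 in complete medium, and 23.2, 20.2, 25.5 and 54.0 CPM in differentiation medium. No library of the one medium reached those of the other, and ME1 fell by 2.35 on the log2 scale (SE 0.37, n = 4; edgeR adjusted p = 0.0172). HSD17B12, a reductase of the fatty acid elongation cycle, measured 185, 185, 103 and 187 CPM in complete medium and 311, 869.7, 409.7 and 747 CPM in differentiation medium. It rose by 1.83 on the log2 scale (SE 0.37, n = 4; edgeR adjusted p = 0.0313). The call of ME1 was lost in 3 and that of HSD17B12 in 6 of 8 fits without 1 library, with an adjusted p of up to 0.0682 and 0.0890.

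**Figure D4:**
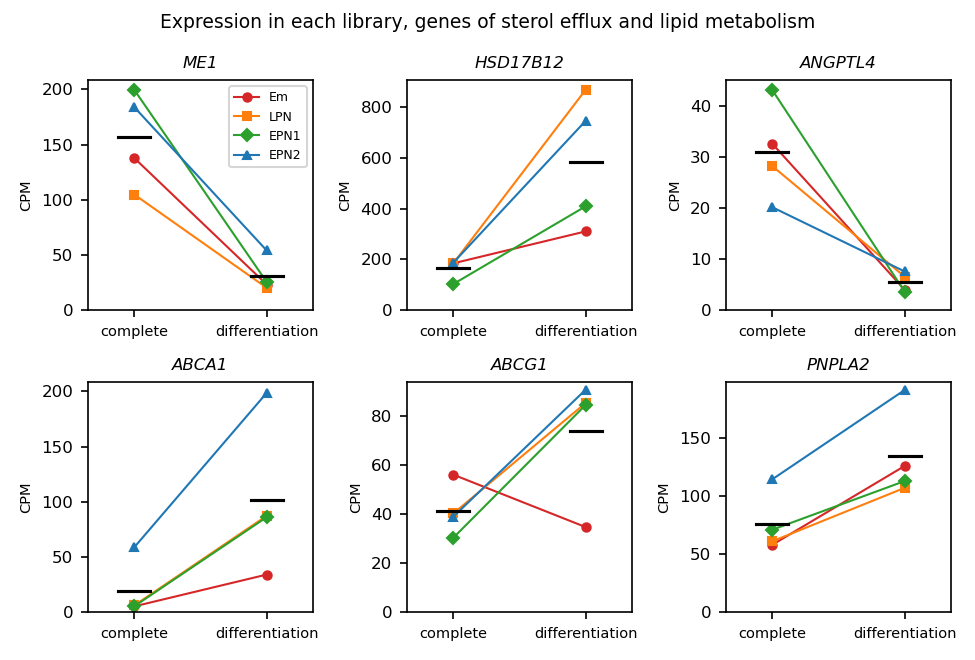
Each panel gives the level in CPM (vertical axis, from 0) of 1 gene in complete and differentiation medium, with 1 line and symbol per PPDO line and a black bar for the mean of 4. ME1 and ANGPTL4 are lower and HSD17B12 is higher in differentiation medium without overlap, while ABCG1 is lower only in Em.

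Among 16 tested genes of fatty acid oxidation and ketogenesis, edgeR called 1 without the block, beside 6.97% of all genes. With the block it called 4, beside 19.9%, and DESeq2 without the block called 1 of 17, beside 17.9%. The gene called by edgeR without the block was ANGPTL4, a secreted inhibitor of lipoprotein lipase, which fell. It measured 32.6, 28.2, 43.1 and 20.1 CPM in Em, LPN, EPN1 and EPN2 in complete medium and 3.98, 6.56, 3.62 and 7.57 CPM in differentiation medium. The media did not overlap, and ANGPTL4 fell by 2.51 on the log2 scale (SE 0.33, n = 4; edgeR adjusted p = 0.0121). On leaving out EPN1 in differentiation medium its adjusted p was 0.0505. Of 8 tested genes of lipid droplets, uptake and lipolysis none was called by edgeR without the block, and 1 had an unadjusted p-value under 0.05. DESeq2 without the block called 1 of the 9 for which it gave an adjusted p, also beside 17.9%. The smallest p-values were those of PNPLA2, the triglyceride lipase of lipid droplets, with means of 76.2 ± 26.1 and 134 ± 38.8 CPM, and SLC27A4, a fatty acid transporter, with 80.4 ± 16.9 and 129 ± 66.0 CPM. PNPLA2 was called with the block (adjusted p = 0.0137) and without EPN2 in complete medium (adjusted p = 0.0400), and SLC27A4 was not (adjusted p = 0.0983).

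Genes of proliferation had mostly negative fold changes. Of 16 tested, 13 had a negative fold change, with a median of -0.53, and 7 were called lower with the block, beside 10.4% of all genes. Without it edgeR called none, beside 6.97% of all genes, and DESeq2 called 1, beside 17.9%. In edgeR 5 had an unadjusted p-value under 0.05, beside 27.3% of all genes. BUB1 and CDK1, which act in mitosis, had the smallest p-values, with means of 29.4 ± 8.62 and 10.9 ± 5.75 CPM for BUB1 and 28.2 ± 12.0 and 11.1 ± 7.34 CPM for CDK1. The median log2 difference of the list was -0.32 in Em, -1.21 in LPN, -0.61 in EPN1 and -0.35 in EPN2. LPN thus had the lowest median for both the proliferation genes and the sterol enzymes, and the part of proliferation in the sterol values was not tested.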

How the data were processed

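PPDO of 4 lines were cultured for 7 days in complete or differentiation medium, and poly(A)-selected RNA was sequenced on a NovaSeq X+. Reads were quantified by the authors with salmon (nf-core) on a pig genome with custom annotation. The deposited values are estimated counts per gene. Their analysis used gene length scaled counts and DESeq2. Whether the deposited table is length scaled could not be settled, and 78.6% of the values above 0 were exactly whole numbers, with no tolerance. The submitters' processing notes list Sscrofa11.1 and GRCh38 with no role, and coordinates are those of RefSeq for Sscrofa11.1.

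Libraries were assigned to the media by the titles and column names, although a treatment label names endocrine induction for all 8, and to the lines by the column names. Same-line libraries were correlated after removal of the medium means (r = 0.400 to 0.657) more than libraries of different lines (-0.479 to 0.242), so that the line pairs the media. Whether lines were grown or sequenced together is not stated. Without the block the p-values set the difference between the media against the spread between 4 lines. With the block they set it against the spread of the differences within the 4 lines.

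Rows of a gene (-iso, -ext) were summed by identifier and rounded. Reporter transgenes (8 rows, 0.00142% of counts) entered neither library sizes nor tests. The main test was edgeR 4.0.16 (R 4.3.3) with TMM factors of 0.935 to 1.06, filterByExpr, the quasi-likelihood test with medium as the only term and Benjamini-Hochberg adjustment over 14475 genes at a threshold of 0.05. Standard errors were derived from the fold change and the F statistic. Intervals are 95% intervals of the fold change. Differences within a line are of log2(CPM + 0.05). Shares of variance come from a division of the sum of squares of these log values into line, medium and rest. Alternatives were DESeq2 1.42.0, the line as a block, other scaling factors, other filters, rows without -ext and omission of libraries or lines. Fits were also tried on simulated data, whose outcome is not reported here and is used for no result.

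The genes and lists were chosen with earlier results of these data known. Named with every library are the 3 genes with the smallest p-value in each of the 3 lists. The same holds for the reported genes of other lists that edgeR called without the block. In a reported list with no such call, the 2 genes with the smallest p-value are named, with every library or by their means. Some results of the other lists are not reported here. Transcript lengths were not used here, and a marker named as the most abundant is so by CPM without correction for length.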

Additional observations from a re-analysis of the deposited data

Results flagged for a closer look

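The FDPS level of Em in complete medium, 9.10 CPM, was far from the other 3 libraries of that medium, which measured 13.0 to 13.7 CPM. It was 1 of 58 groups of 4 libraries examined for such a gap, and chance alone gives about 1 in 20.

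The log2 difference between the media was positive in Em and negative in LPN, EPN1 and EPN2 for 6 of 29 genes. In Em it was 0.60 for HMGCS1, 0.51 for FDFT1, 0.35 for SQLE, 0.18 for MSMO1, 0.15 for NSDHL and 0.19 for STARD4. The difference between Em and the other lines was not tested.

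Reads of reporter transgenes, which were used in no comparison, were highest in EPN1 in complete medium with 4664 counts, compared with 234 counts in EPN1 in differentiation medium and 0 to 66 counts in the other libraries.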

How the results depend on the processing

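The count of genes past the threshold, 1009 of all tested, was 3001 by DESeq2, 2884 by edgeR with the line as replicate block, 5609 by DESeq2 with the block and 506 without the low-count filter, and it ranged from 0 to 1207 on leaving out a library or a line without the block and from 8 to 2989 on leaving out a line with it. Leaving out both libraries of LPN gave 5 calls and of EPN1 0 calls (22 and 8 with the block, a combination chosen after seeing the data). Calls among the sterol enzymes, 0 of 16, were 1 with library totals only, 2 by DESeq2, 2 with the block and 5 by DESeq2 with the block, 0 on every leaving out without the block and 0 to 4 with it. For the 5 regulators the block gave 1 call, DESeq2 with the block 3, and leaving out 0 without and 0 to 1 with the block. For the 8 fatty acid genes these were 1, 2, 0 to 2 and 0 to 3. For the other 72 lipid genes, with 4 calls, they were 16, 30, 0 to 8 and 0 to 16, and 12 by DESeq2 without the block. On leaving out without the block the median of the sterol enzymes ranged from -0.26 to 0.039 and that of the regulators from -0.37 to -0.098. The median of the fatty acid genes ranged from -0.52 to -0.20, the latter without Em in complete medium, and it was -0.49 without both libraries of Em. The fold changes of HMGCS1 (-0.34 to 0.25), IDI1 (-0.50 to 0.029), FDPS (-0.24 to 0.041), FDFT1 (-0.41 to 0.049) and HSD17B7 (-0.29 to 0.070) changed sign on leaving out, with or without the block, and their direction is not established. In edgeR the block changed no call among the 29 genes other than the 4 given. The cause of these shifts was not tested. With 4 lines, 1 each for the embryonic and late postnatal stage, differences within the intervals given could not be detected. Depth limits FADS1 and PMVK most, with 77 and 98 counts in their lowest library.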
